A study of Mus musculus with 12 samples.

Results

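The proteasome subunit genes were taken as every gene row of the count table whose symbol starts with Psma, Psmb, Psmc, Psmd or Psme followed by a digit, with processed copies (-ps names) left out. The rule found 45 of 48663 gene rows. Of these, 36 encode subunits, activators or assembly chaperones of the constitutive proteasome. Another 5 belong to the immunoproteasome, namely Psmb8, Psmb9, Psmb10, Psme1 and Psme2. The remaining 4 stand apart from both sets. They are Psma8, the testis form of an α subunit, Psmb11, the catalytic subunit of the thymoproteasome of cortical thymic epithelium, Psme2b, a near-identical copy of Psme2, and Psmc3ip, whose product is not a proteasome subunit. The low-count filter kept 43 of the 45 members in each comparison and removed Psma8 and Psmb11.

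The proteasome degrades proteins marked with ubiquitin. Its 20S core is a barrel with outer rings of α subunits (Psma genes) and inner rings of β subunits (Psmb genes), and the β subunits encoded by Psmb5, Psmb6 and Psmb7 do the cutting. The 19S cap recognises and unfolds the substrate with a ring of ATPases (Psmc genes) and non-ATPase subunits of a base and a lid (Psmd genes). In lymphocytes and in cells exposed to interferon, new cores take up Psmb8 in place of Psmb5, Psmb9 in place of Psmb6 and Psmb10 in place of Psmb7. Psme1 and Psme2 together form PA28αβ, an activator ring that is also raised by interferon, while Psme3 forms the nuclear ring PA28γ and Psme4 encodes PA200. These changes in composition alter which peptides are cut and offered on MHC class I.

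RNA sequencing was done on 12 libraries of T cells sorted from C57BL/6 mice, 3 in each of 4 groups, with 40000 cells sorted per sample. All mice carried floxed Lrf alleles (Lrf fl/fl), and control mice lacked the Cd4 Cre transgene while knockout (KO) mice had it. Cd4 Cre is a recombinase under Cd4 regulatory sequence, active from a stage of T cell development in the thymus onward. LRF is a zinc finger repressor and activator of transcription whose gene is Zbtb7a. Precursors of intraepithelial lymphocytes (IELp) came from the thymus of control and of KO mice and were sorted as TCRβ+ cells lacking CD4, CD8α and CD44, with CD122, H-2Kb, high CD5 and high PD-1. The other groups were sorted as CD45+ TCRβ+ CD8α+ cells without CD4 or CD8β (CD8αα cells). By their titles these were control intraepithelial lymphocytes (IEL) and KO splenocytes, so in the CD8αα cells genotype and tissue changed together and cannot be told apart. Nothing in the labels ties the 3 replicates of a group to separate mice. The p-values therefore rest on the spread among these libraries, which may be technical.

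Gene counts per library lay between 13432598 and 19947734. Zbtb7a fell from 75.4 ± 6.27 to 45.5 ± 4.66 CPM in KO IELp (SD, n = 3, where CPM are counts scaled to the total over all gene rows of the library). Levels of the T cell gene Cd3e lay between 927 and 2294 CPM in all libraries, and Cd8b1 stayed at or below 7.16 CPM. Of the 8 T cell markers 3 rose and 5 fell from control IELp to control IEL, with a median log2 fold change of -0.40. Among them Cd5, used in the IELp sort, fell from 194 CPM to 0.893 CPM. Markers of other cells differed between groups. The 11 gut epithelial markers summed to 520 to 714 CPM in control IEL, where all 11 were above 0, against 67.1 to 75.3 CPM in control IELp, 67.1 to 69.0 CPM in KO IELp and 14.0 to 16.9 CPM in KO spleen cells. Cdh1 (397 CPM) and Epcam (146 CPM) carried most of the sum in control IEL, while the intestinal genes Krt8, Krt19, Krt20, Fabp1, Fabp2 and Apoa1 had means of 4.83 to 8.50 CPM. In KO spleen cells the 8 B cell markers summed to 1312 to 1373 CPM, against at most 660 CPM elsewhere, mostly Ighm (1139 CPM). The 8 dendritic cell markers summed to 267 to 431 CPM there, against at most 32.4 CPM elsewhere. Most of that was Cd74 (179 CPM), H2-Ab1 (65.0 CPM), H2-Aa (37.1 CPM) and H2-Eb1 (30.9 CPM). Flt3 and Zbtb46 had means of 1.40 and 6.66 CPM in KO spleen cells and Siglech was at 0. Xcr1 was at 2.69 CPM, against 2.71 CPM in control IEL and 4.36 CPM in KO IELp. The 10 myeloid markers summed to 422 to 541 CPM in control IEL, 130 to 164 CPM in KO spleen cells and at most 36.8 CPM in IELp. In control IEL most of it was Tyrobp (358 CPM), with Adgre1, C1qa, C1qb and Cd14 at 0 and Lyz2 at 0.0724 CPM. The 9 thymic epithelial markers summed to 45.4 to 114 CPM, mostly Ly75 with group means of 45.2 to 99.1 CPM and Ccl25 with 6.14 to 12.2 CPM, while Foxn1, Krt5 and Krt14 were at 0 in all 12 libraries. Control IEL replicate 3 stood apart from the other 2, with chi-square values per degree of freedom of 12.8 and 18.2 against 4.33 between those 2. In bulk samples, fewer cells of a type and less RNA per cell cannot be told apart.

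Constitutive proteasome transcripts were a larger part of the gene counts in the thymic precursors than in CD8αα cells. The 36 constitutive members together took 0.643 ± 0.0175% of gene counts in control IELp, 0.617 ± 0.00696% in KO IELp, 0.412 ± 0.0162% in control IEL and 0.536 ± 0.0115% in KO spleen cells. No 2 groups overlapped, although the IELp groups came close, with the lowest control library at 0.624% and the highest KO library at 0.621%. These shares rest on library totals alone. On that scale the median log2 fold change of all tested genes was itself below 0. It was -0.24 in control IEL against control IELp and -0.11 in KO spleen cells against KO IELp. The 5 immunoproteasome members followed another order, with 0.142 ± 0.00428% in KO spleen cells, 0.124 ± 0.00357% in control IELp, 0.0986 ± 0.00263% in KO IELp and 0.0934 ± 0.00439% in control IEL. The KO IELp and control IEL libraries overlapped in this sum. Psmb8 (611 CPM) and Psme1 (352 CPM) made up most of its 1236 CPM in control IELp. Psmb9 and Psmb10 did not follow this order. Their means were higher in control IEL (135 and 141 CPM) than in control IELp (114 and 112 CPM). The immunoproteasome sum was 0.192 ± 0.000669 of the constitutive sum in control IELp, 0.160 ± 0.00311 in KO IELp, 0.227 ± 0.00193 in control IEL and 0.265 ± 0.00947 in KO spleen cells, and no 2 groups overlapped in this ratio.

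**Figure D1:**
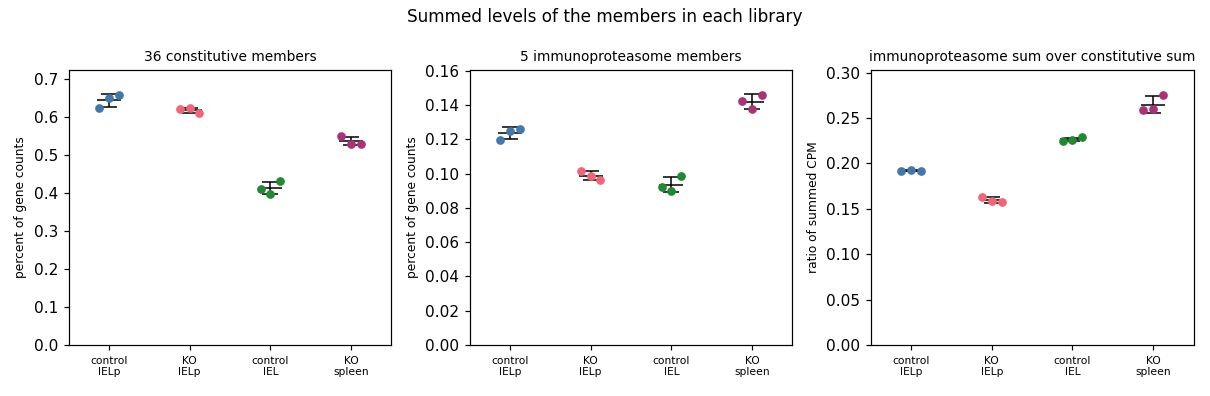
Summed levels of the 36 constitutive members (left, percent of gene counts), the 5 immunoproteasome members (middle, percent of gene counts) and their ratio (right) in each library, with the 3 libraries of a group as points and the mean and SD as black bars. The constitutive sum is lowest in control IEL (0.412%), the immunoproteasome sum is highest in KO spleen cells (0.142%), and the ratio separates all 4 groups.

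Members were also compared per kilobase of exon sequence (mean CPM per kilobase over the 4 groups). The length was the union of all annotated exons of a gene, so the order depends on the annotation as well as on reads. On this measure Psma6, an α subunit with 1234 such bases, was the highest constitutive member at 171.1. Psmb8 followed at 152.6 and Psme1 at 150.5. The other immunoproteasome genes were lower, with Psmb10 at 78.1, Psmb9 at 32.6 and Psme2 at 24.3. Their constitutive counterparts stood at 31.1 (Psmb5), 78.9 (Psmb6) and 19.9 (Psmb7). Annotated lengths differ within such pairs, with 3381 bases for Psmb8 and 899 for Psmb5. Psmd9, a chaperone of 19S assembly with 7248 such bases, was the lowest constitutive member at 5.47. In CPM its group means of 34.7 to 45.9 were above those of Psma5, at 13.5 to 27.4.

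Psme2 could not be measured apart from Psme2b with certainty. Psme2 lies on chromosome 14 (55587441 to 55591113, minus strand) and Psme2b on chromosome 11 (48945354 to 48946190, minus strand), both in mm10 by the GENCODE mouse annotation, release 21. Their coding sequences of 717 bases differ at 5 positions and are 99.3% identical. A stretch of 60 coding bases that holds 3 of the 5 differences, shown in capitals, reads as follows.
Psme2: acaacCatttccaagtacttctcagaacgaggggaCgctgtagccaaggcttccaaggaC
Psme2b: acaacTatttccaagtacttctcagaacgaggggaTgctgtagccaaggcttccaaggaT
Of all 76-base stretches of Psme2 transcripts, 22.7% also occur in Psme2b, and 59.8% of those of Psme2b occur in Psme2. How the counting treated reads from these stretches was not tested. Psme2b read 184.4 CPM per kilobase, more than Psme2. Both genes are therefore given in the group comparisons below, and each is uncertain. The immunoproteasome sums above count Psme2 and leave out Psme2b. In control IELp Psme2b had a mean of 161 CPM, against 47.3 CPM for Psme2. Shared stretches also make up 36.1% of Psmb5, 34.6% of Psma5 and 24.3% of Psmd9.

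The first comparison asked what loss of LRF does in the thymic precursors. Psmb8 and Psmb9 were lower in KO IELp, and the constitutive members were close to control levels. Psmb8 encodes β5i, the chymotrypsin-like subunit of the immunoproteasome. It read 585.7, 596.8 and 650.6 CPM in the control IELp libraries and 465.3, 428.2 and 412.1 CPM in the KO libraries. All 3 KO libraries lay below all 3 controls. The log2 fold change was -0.47 (SE 0.06, edgeR adjusted p = 4.52e-05), a level 0.723 times that of control. Psmb9, which encodes β1i, read 115.3, 114.3 and 113.9 CPM in control and 79.6, 86.8 and 80.2 CPM in KO IELp. Its KO libraries were again all below the controls, with a log2 fold change of -0.46 (SE 0.07, edgeR adjusted p = 4.04e-04).

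Psmb10, which encodes β2i, read 104.2, 111.3 and 119.0 CPM in control and 101.1, 98.2 and 94.2 CPM in KO IELp. The groups did not overlap, but the difference did not pass the test, with a log2 fold change of -0.17 (SE 0.07) and an edgeR adjusted p of 0.153. Psme1, the α subunit of PA28, overlapped between the groups at 346.5, 379.4 and 329.9 CPM in control and 329.7, 334.3 and 335.8 CPM in KO IELp (log2 fold change -0.06, SE 0.06, edgeR adjusted p = 0.579). Psme2, the β subunit of PA28, read 43.8, 49.0 and 49.0 CPM in control and 38.2, 35.5 and 39.2 CPM in KO IELp. Its log2 fold change of -0.30 (SE 0.09) passed narrowly with an edgeR adjusted p of 0.0407, and 8 of 15 alternative settings gave an adjusted p above 0.05, up to 0.157 without KO replicate 2. Psme2b went the same way, from 161.2, 164.0 and 158.6 CPM to 129.7, 120.4 and 131.8 CPM (edgeR log2 fold change -0.32, SE 0.06, adjusted p = 0.00255).

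Thus 3 of the 5 immunoproteasome members fell in KO IELp and 0 rose. For comparison, 13.1% of all 14629 tested genes passed in this comparison, 6.48% as higher and 6.58% as lower, and in 16.8% every KO library lay below every control. The median log2 fold change of the 5 members was -0.30, against -0.01 over all tested genes. Of the 36 constitutive members 0 rose and 1 fell in edgeR, with a median of -0.05 and a range from -0.21 to 0.22. At an unadjusted p under 0.05, 1 was higher and 5 lower, and DESeq2 called 1 higher and 3 lower. The single call was Psmb4, a structural β subunit, at 118.3, 124.6 and 125.9 CPM in control against 105.8, 105.2 and 105.0 CPM in KO IELp (log2 fold change -0.20, SE 0.06, edgeR adjusted p = 0.0483). It was lost in 8 of 15 alternative settings. In the chosen fit all 7 α subunits and all 7 constitutive β subunits had log2 fold changes below 0, from -0.21 to -0.02, and 1 of the 14 passed. Psmb6 reached 0.01 in the alternative settings.

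The constitutive catalytic subunits did not pass in KO IELp. Psmb5 (log2 fold change -0.21, SE 0.12), Psmb6 (-0.02, SE 0.06) and Psmb7 (-0.13, SE 0.07) had edgeR adjusted p of 0.273, 0.853 and 0.272. Psme3 read 334.8, 372.4 and 353.4 CPM in control and 343.9, 372.7 and 337.8 CPM in KO IELp, with full overlap (log2 fold change 0.01, SE 0.06).

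Genes that act with the immunoproteasome were read from lists of partners. Of 9 genes that supply or load peptide on MHC class I, 5 fell and 0 rose in KO IELp. Among them were the peptide transporter genes Tap1 (log2 fold change -0.30) and Tap2 (-0.32), which lie beside Psmb8 and Psmb9 in the MHC, and B2m (-0.31), the light chain of class I. Of 6 interferon-response transcription factors 2 fell, among them Irf8 (-0.35). In the list of 5 genes around Nrf1, the factor that raises constitutive proteasome genes when proteasome activity is short, Nfe2l1, which encodes Nrf1, rose (0.28, edgeR adjusted p = 0.018) and the other 4 did not pass. None of 5 assembly factors of the 20S core, 6 partners of the 19S cap and 6 ubiquitin genes passed, and 0 of each did so at an unadjusted p under 0.05. The lowest gene of the assembly list was Psmg1 at -0.13. Markers of other cells also differed between the IELp groups. B cell markers summed to 432 to 444 CPM in control and 551 to 579 CPM in KO IELp, nearly all of it Ighm, with Ms4a1 at 0 in both. Dendritic cell markers summed to 13.8 to 18.1 CPM in control and 12.2 to 13.6 CPM in KO IELp. Of that list Cd74, the invariant chain of MHC class II, went from 6.87 to 2.85 CPM (log2 fold change -1.25, edgeR adjusted p = 0.0017). Their part in these results was not tested.

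**Figure D2:**
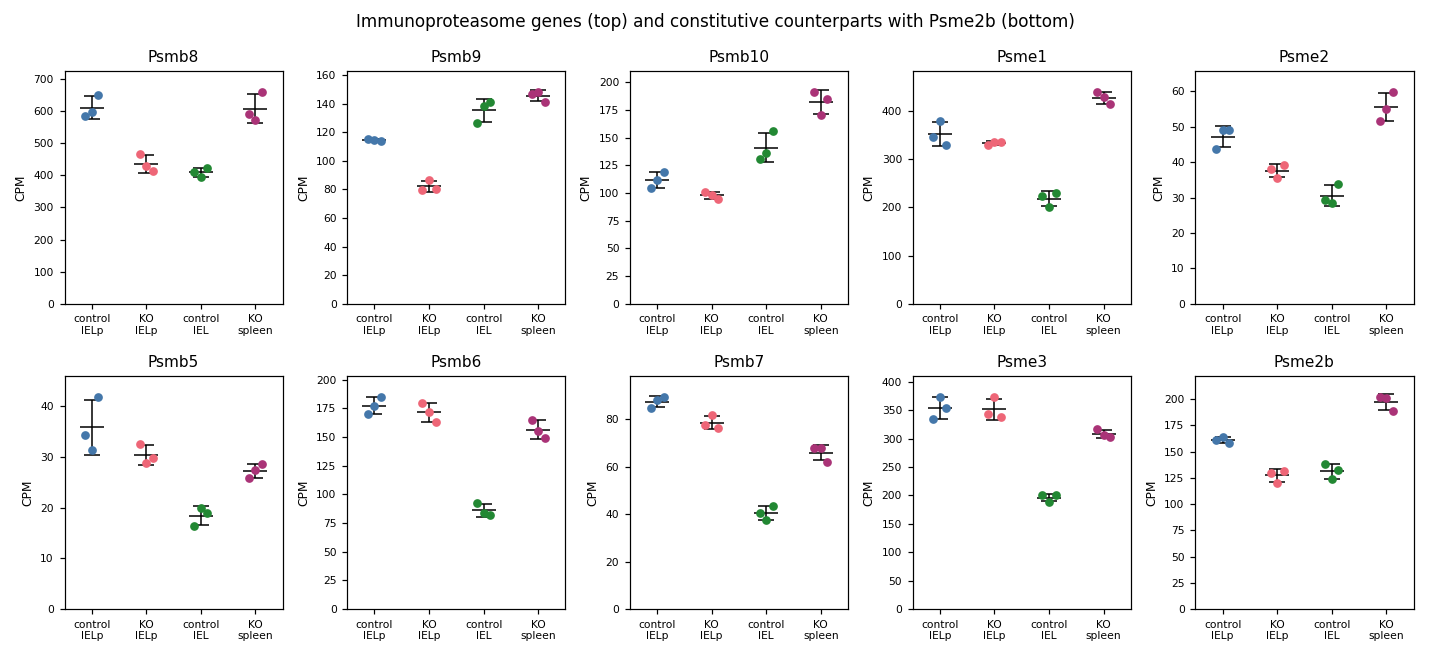
Level of each immunoproteasome gene (top row) and of the constitutive genes Psmb5, Psmb6, Psmb7 and Psme3 with the copy Psme2b (bottom row) in every library, in CPM from 0, with the mean and SD of the 3 libraries of a group in black. Psmb8 and Psmb9 are lower in KO IELp than in control IELp, and Psmb5, Psmb6, Psmb7 and Psme3 have their lowest means in control IEL.

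The second comparison set control IEL beside control IELp, mature CD8αα cells beside their thymic precursors. Constitutive subunit genes were lower in IEL, while immunoproteasome genes were split. Psma6 was at 272.6, 286.6 and 273.7 CPM in the precursors and 120.5, 109.9 and 113.6 CPM in IEL (log2 fold change -1.05, SE 0.07, edgeR adjusted p = 1.65e-07), the lowest fold change of all members. Psmb6, the constitutive β1 subunit, read 169.7, 176.8 and 184.6 CPM in the precursors against 92.0, 83.7 and 82.0 CPM in IEL (-0.81, SE 0.08). Psmb7, the β2 subunit, went from 84.7, 88.2 and 89.3 CPM to 40.4, 37.5 and 43.5 CPM (-0.88, SE 0.09). Psmb5, the β5 subunit, went from 34.3, 31.3 and 41.8 CPM to 16.4, 19.9 and 19.01 CPM (-0.72, SE 0.14). In none of these genes did an IEL library reach a precursor library, which held for 46.3% of all tested genes.

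Of the 36 constitutive members 28 fell and 0 rose, by edgeR as by DESeq2, with a median log2 fold change of -0.45 against -0.01 over all genes. Here 64.8% of the 14878 tested genes passed, 31.9% as higher and 32.9% as lower, so a call by itself was common. The falls covered 6 of 7 α subunits, 4 of 4 structural and 3 of 3 catalytic β subunits, 4 of 6 ATPases, 2 of 3 other base subunits, 7 of 8 lid subunits and both of Psme3 and Psme4. The α subunit Psma7 (-0.67), the ATPase Psmc4 (-0.59) and the lid subunits Psmd13 (-0.63) and Psmd7 (-0.67) were among the clearest. Psme3 fell from 334.8, 372.4 and 353.4 CPM to 199.9, 188.2 and 200.2 CPM (-0.62, SE 0.07). The 3 chaperones of 19S assembly did not pass, with 0 at an unadjusted p under 0.05 and a range from -0.17 to 0.09. Under library totals alone the median of all genes moved to -0.24 and that of the constitutive members to -0.68. Without control IEL replicate 3, 29 members fell.

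Psmb9 and Psmb10 rose in control IEL, with every IEL library above every precursor library, as in 24.6% of all tested genes. Psmb9 read 126.5, 138.1 and 141.4 CPM there, above the 113.9 to 115.3 CPM of the precursors (log2 fold change 0.47, SE 0.07, edgeR adjusted p = 1.61e-04). Psmb10 read 130.4, 136.5 and 156.0 CPM, above the 104.2 to 119.0 CPM of the precursors (0.57, SE 0.09, edgeR adjusted p = 1.84e-04). Psmb8 fell, with 410.9, 395.8 and 422.1 CPM in IEL against 585.7 to 650.6 CPM (-0.35, SE 0.06). Psme1 fell to 223.3, 199.6 and 229.7 CPM from 329.9 to 379.4 CPM (-0.46, SE 0.08), and Psme2 to 29.3, 28.6 and 33.9 CPM from 43.8 to 49.0 CPM (-0.40, SE 0.11). The edgeR adjusted p-values of these 3 were 5.86e-04, 3.06e-04 and 0.007. Psme2b, the copy of Psme2, did not pass (-0.07, SE 0.07). These 5 calls held in all 15 alternative settings, which include a repeat of the main fit on the reads recovered from FPM. Gut epithelial and myeloid markers were also higher in the IEL libraries (520 to 714 and 422 to 541 CPM in sum, mostly Cdh1 and Epcam, and Tyrobp), with the macrophage genes Adgre1, C1qa, C1qb and Cd14 at 0. Their part in these results was not tested.

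Partner lists differed in direction between control IEL and control IELp. All 5 assembly factors of the 20S core fell, with Psmg1 at 38.0 ± 1.05 CPM in precursors and 9.12 ± 0.933 CPM in IEL (log2 fold change -1.83) and Pomp, the maturation factor, at -0.81. All 6 interferon-response factors rose, among them Irf8 (2.92) and Irf1 (1.53). Of the 9 class I genes 8 rose, led by Tapbp (1.12), Tap2 (1.01) and Tapbpl (1.09), and Tap1 rose by 0.18. Nfe2l1 (0.78) and Nfe2l2 (0.42), which encodes Nrf2, rose, and Vcp, an unfolding enzyme that feeds the proteasome, fell (-0.31). Of the ubiquitin genes, Uba1 (-0.30), the main ubiquitin-activating enzyme, and Rps27a (-0.98) fell. Of the 6 partners of the 19S cap 2 rose and 2 fell.

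**Figure D3:**
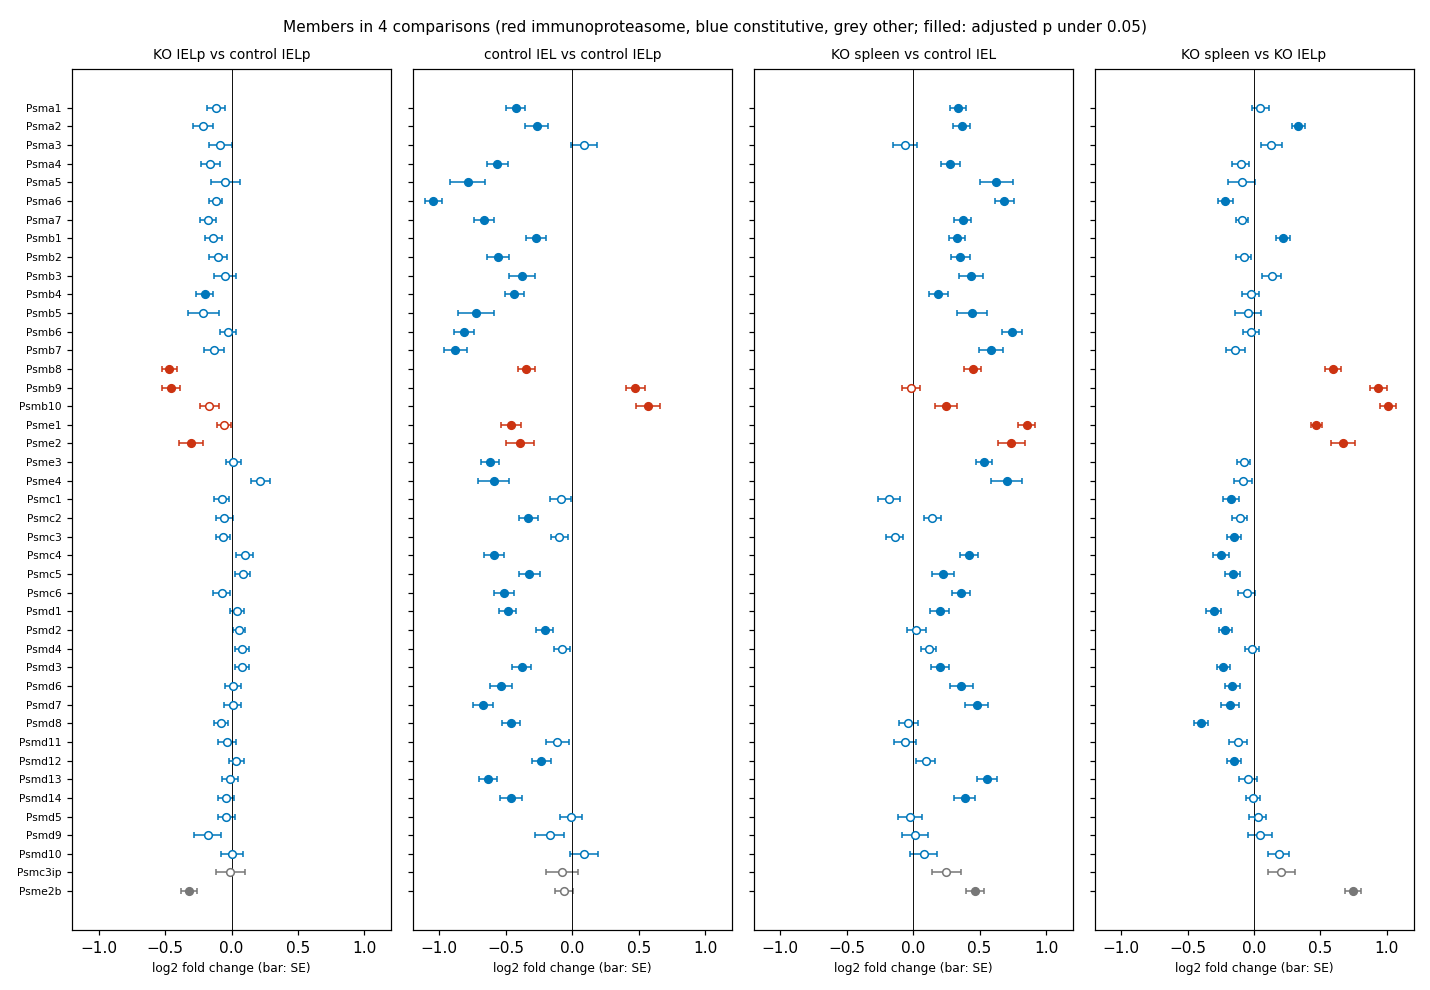
Log2 fold change of the 43 members tested in each of 4 comparisons (x axis, bars are SE), ordered by role, with filled points for an edgeR adjusted p under 0.05. Immunoproteasome genes are red, constitutive members blue and the others grey; in control IEL against control IELp 28 of 36 blue points are filled and left of 0.

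The third comparison, KO spleen cells against control IEL, kept the CD8αα sort and changed genotype and tissue together. Most proteasome genes were higher in the KO spleen cells. Psme1 stood out at 439.0, 428.5 and 413.8 CPM against 223.3, 199.6 and 229.7 CPM (edgeR log2 fold change 0.85, SE 0.07, adjusted p = 2.60e-06). Psme2 was at 51.7, 55.2 and 59.9 CPM against 29.3, 28.6 and 33.9 CPM (0.74, SE 0.10), and Psme2b rose by 0.47 (SE 0.07). Psmb8 was at 592.3, 571.9 and 659.9 CPM, above all IEL libraries, as in 39.2% of tested genes (0.45, SE 0.06, edgeR adjusted p = 1.69e-04). Psmb10 was at 191.2, 170.3 and 184.8 CPM against 130.4, 136.5 and 156.0 CPM (0.25, SE 0.08, edgeR adjusted p = 0.0259). The Psmb10 call was lost without KO spleen replicate 1 (adjusted p 0.0992), without control IEL replicate 1 (0.127) and without control IEL replicate 2 (0.0879). Psmb9 was at 147.1, 148.2 and 141.1 CPM, which overlapped control IEL (-0.02, SE 0.07, edgeR adjusted p = 0.854).

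Of the 36 constitutive members 24 were higher and 0 lower by edgeR and by DESeq2, with 24 higher and 2 lower at an unadjusted p under 0.05. Their median was 0.33 against 0.00 over all genes. In this comparison 58.2% of the 14875 tested genes passed, 29.1% as higher and 29.2% as lower. Psmb6 rose by 0.74 (SE 0.08), Psmb7 by 0.58 (SE 0.09), Psmb5 by 0.44 (SE 0.12) and Psme3 by 0.53 (SE 0.06). Psma6 (0.69), Psmd13 (0.56), Psmc4 (0.42) and Psma7 (0.37) rose as well. All 7 constitutive β subunits and 6 of 7 α subunits were among the calls, against 3 of 6 ATPases and 5 of 8 lid subunits. The assembly factor Psmg1 rose by 1.69 and Pomp by 0.61. Of the interferon-response factors 4 of 6 were lower in KO spleen cells, among them Stat2 (-1.12) and Irf8 (-0.85), and 1 was higher (0.27). Of the 9 class I genes 5 were higher and 4 lower. B cell markers (mostly Ighm) and dendritic cell markers (mostly Cd74 and the H2 genes) were higher in sum in the spleen libraries. Gut epithelial markers (mostly Cdh1 and Epcam) were higher in the IEL libraries. The part of these markers in the results was not tested. Under library totals alone the median of all genes moved to 0.13. The 24 calls stood at 24 without control IEL replicate 3. Single calls were less stable, since Psmb4 was lost in 7 of 15 alternative settings (adjusted p up to 0.139), Psmc5 in 6 (up to 0.189) and Psmd1 and Psmd3 in 5 each.

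The fourth comparison set KO spleen cells beside KO IELp. All 5 immunoproteasome members rose. Psmb10 went from 101.1, 98.2 and 94.2 CPM in the precursors to 191.2, 170.3 and 184.8 CPM, a log2 fold change of 1.01 (SE 0.06, edgeR adjusted p = 2.76e-08). Psmb9 went from 79.6, 86.8 and 80.2 CPM to 147.1, 148.2 and 141.1 CPM (0.94, SE 0.06, edgeR adjusted p = 6.70e-08). Psmb8 rose by 0.59 (SE 0.06), Psme1 by 0.47 (SE 0.04), Psme2 by 0.67 (SE 0.09) and Psme2b by 0.74 (SE 0.06). In each of these genes every spleen library was above every precursor library, which held for 20.4% of all tested genes. Their median of 0.67 compares with 0.00 over all genes, and 45.0% of the 14880 tested genes passed, 22.6% as higher and 22.4% as lower. Dendritic cell markers include genes of professional antigen-presenting cells. They summed to 267 to 431 CPM in spleen against 12.2 to 13.6 CPM in KO IELp, with Siglech at 0 in both groups. In spleen most of the sum was Cd74, H2-Ab1, H2-Aa and H2-Eb1. B cell markers summed to 1312 to 1373 against 551 to 579 CPM, with Ms4a1 at 0 in KO IELp. The part of such cells in these results was not tested.

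The constitutive members were lower or close to level in KO spleen cells against KO IELp. Of the 36 members 2 rose and 12 fell, with a median of -0.09. The members that rose were the core subunits Psma2 (0.33, SE 0.05) and Psmb1 (0.22, SE 0.05). The falls took in 4 of 6 ATPases, 2 of 3 other base subunits and 5 of 8 lid subunits of the 19S cap, and 1 of the 14 core subunits, Psma6 (-0.21, SE 0.05). Psmd8, a lid subunit, fell from 200.8, 200.3 and 199.7 CPM to 146.7, 140.5 and 133.9 CPM (-0.40, SE 0.05, edgeR adjusted p = 5.46e-05). The base subunits Psmd1 (-0.30) and Psmd2 (-0.21), the lid subunit Psmd3 (-0.23) and the ATPase Psmc4 (-0.25) followed. Psmb5 (-0.04, SE 0.10), Psmb6 (-0.02, SE 0.06), Psmb7 (-0.14, SE 0.07) and Psme3 (-0.08, SE 0.05) did not pass. Psmb7 and Psme3 passed as lower in 3 of 15 alternative settings each. The number of falls depended on scaling, since library totals alone moved the median of all genes to -0.11 and gave 1 rise and 21 falls. It was 6 without KO spleen replicate 2 or 3 and 7 without KO IELp replicate 2 or 3. The Psma2 rise held in all 15 alternative settings, while the Psmb1 rise was lost in 3. The falls of the ATPases Psmc1, Psmc3 and Psmc5 were lost in 5, 4 and 6 settings. Those of the lid subunits Psmd12, Psmd6 and Psmd7 were lost in 6, 5 and 5.

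Among partners in KO spleen cells against KO IELp, 5 of 6 interferon-response factors rose, among them Irf1 (1.72) and Irf8 (2.45). Of the 9 class I genes 7 rose, led by Tapbpl (1.59), B2m (1.37) and Tapbp (0.95). Of the 5 assembly factors of the 20S core 1 fell, Pomp (-0.20), and Psmg1 stood at 0.01.

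Control cells and KO cells were then compared for the size of the step from precursor to CD8αα cell, in 1 fit of the 12 libraries. The step taken by KO cells led to spleen and that of control cells to the IEL compartment. All 5 immunoproteasome members had a higher step in the KO arm. The difference was 1.04 for Psme2 (SE 0.14), 0.92 for Psmb8 (SE 0.09), 0.91 for Psme1 (SE 0.09), 0.44 for Psmb9 (SE 0.09) and 0.41 for Psmb10 (SE 0.11) on the log2 scale, with edgeR adjusted p between 4.93e-07 and 0.00584. Psme2b, the copy of Psme2, had a difference of 0.79. Psmb8, Psme1 and Psme2 fell from control precursors to control IEL and rose from KO precursors to KO spleen cells. The differences include those between the precursors, where Psmb8 (435 against 611 CPM) and Psmb9 (82.2 against 114 CPM) were already lower in KO IELp. Psmb9 ended at 135 CPM in control IEL and 145 CPM in KO spleen cells, with overlapping libraries. Of the constitutive members 21 of 36 had a higher and 0 a lower step in edgeR, DESeq2 and at an unadjusted p under 0.05. These were 6 of 7 α subunits, all 7 constitutive β subunits, 2 of 6 ATPases, 4 of 8 lid subunits, Psme3 (0.52) and Psme4. Psma6 (0.81), Psmb6 (0.77), Psmb7 (0.72), Psmb5 (0.66), Psma2 (0.58), Psmd13 (0.57) and Psma7 (0.55) were among them. The base subunits other than ATPases gave 0 of 3 in both directions, and 0 at an unadjusted p under 0.05. Over all 15757 genes, 46.7% passed, 24.2% as higher and 22.5% as lower.

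**Figure D4:**
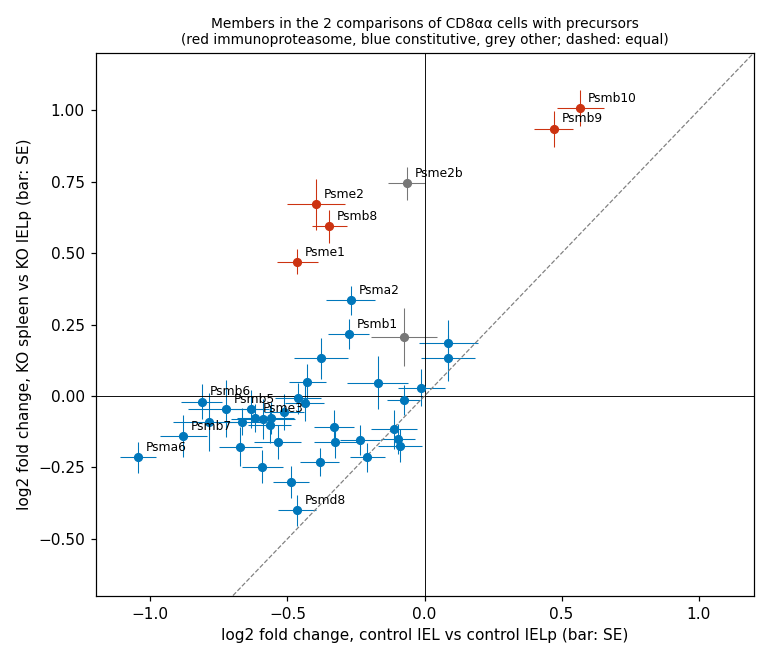
Log2 fold change of each tested member from control IELp to control IEL (x axis) against that from KO IELp to KO spleen cells (y axis), with SE bars, immunoproteasome genes in red, constitutive members in blue, others in grey and a dashed line where both would be equal. The 5 red points lie above the dashed line, and Psmb6, Psmb7 and Psmb5 lie between -0.14 and -0.02 on the y axis and between -0.88 and -0.72 on the x axis.

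Ratios within a library do not depend on scaling between libraries. They were formed for Psmb8, Psmb9 and Psmb10 over the constitutive subunit each replaces, and for Psme1 over Psme3. Psme3 is an activator of the same family, not a subunit that Psme1 replaces. No ratio was formed for Psme2. The ratios are of counts, not per length, so only differences between groups are read. With 3 libraries against 3, the exact permutation test (2-sided) cannot go below p = 0.1, and over the 16 tests its lowest adjusted value was 0.123. The ratio Psmb9/Psmb6 was 0.680, 0.646 and 0.617 in control IELp, 0.443, 0.505 and 0.492 in KO IELp, 1.37, 1.65 and 1.72 in control IEL and 0.890, 0.957 and 0.948 in KO spleen cells. All 4 groups were separate. Control IEL stood at 2.43 times control IELp, and KO spleen cells at 1.94 times KO IELp (exact permutation p = 0.1 each).

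The ratio Psmb10/Psmb7 was 1.27 ± 0.0525 in control IELp and 1.25 ± 0.0501 in KO IELp, which overlapped, 3.49 ± 0.223 in control IEL and 2.77 ± 0.233 in KO spleen cells (SD, n = 3). Control IEL was at 2.73 times control IELp with no overlap. Psmb8/Psmb5 was 17.2 ± 1.76 in control IELp, 14.3 ± 0.553 in KO IELp, 22.4 ± 2.57 in control IEL and 22.3 ± 1.25 in KO spleen cells. For this pair KO IELp lay below control IELp without overlap, and the 2 groups of CD8αα cells overlapped (exact permutation p = 1). Thus Psmb8 fell and its ratio to Psmb5 was higher in control IEL than in control IELp, at 1.30 times. Psme1/Psme3 was 0.996 ± 0.0545 in control IELp, 0.950 ± 0.0492 in KO IELp, 1.11 ± 0.0441 in control IEL and 1.39 ± 0.0188 in KO spleen cells. The IELp groups overlapped and KO spleen cells lay above the 3 other groups.

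**Figure D5:**
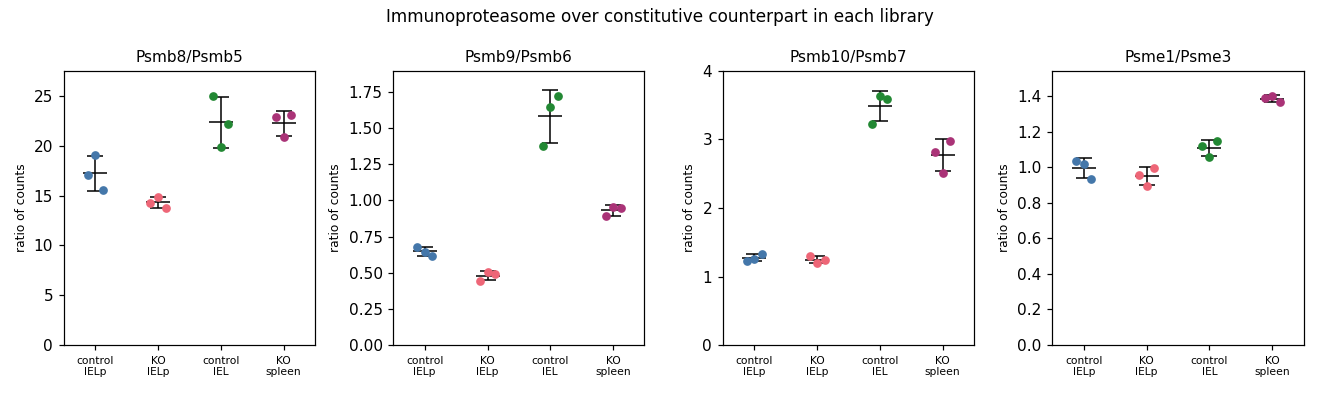
Ratio of counts of Psmb8, Psmb9 and Psmb10 to the constitutive subunit each replaces, and of Psme1 to Psme3, in every library (y axes from 0). The mean and SD of the 3 libraries of a group are in black. Psmb9/Psmb6 separates all 4 groups, and Psmb10/Psmb7 is highest in control IEL at 3.49.

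The members of other tissues were close to absent. Psmb11, which encodes the β5t subunit of the thymus, had 4 and 5 counts in 2 of the 6 IELp libraries and 0 in the other 4. It had 0 counts in the 6 libraries of CD8αα cells, where a count of 0 allows up to 3 counts per library. Psma8 had at most 10 counts in any library. Psmc3ip, whose product works in meiotic recombination, read 18.3 to 26.6 CPM and did not pass in any of the 4 comparisons.

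Promoter sequence was read for the members from RefSeq (GRCm38.p6, the mm10 assembly), over the 250 bases before each RefSeq start. It matched all 5 immunoproteasome genes, 30 of the 36 constitutive members and 3 of the other 4. The interferon-gamma-activated site pattern, TTCNNNGAA on both strands, occurred in Psmb8 and in none of the other immunoproteasome or constitutive members matched. It occurred in 7.02% of 32851 RefSeq promoters of the same length. The match in Psmb8, at bases -97 to -89 from the RefSeq start, is shown in capitals in its flanks (chr17:34198088-34198116, plus strand), because Psmb8 changed in all 4 comparisons.
Psmb8: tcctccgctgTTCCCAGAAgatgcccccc
By GENCODE the Psmb8 gene begins further upstream, at base 34197721, and the whole Psmb8 window lies in annotated exons, so this match lies within the gene.
The interferon-stimulated response element pattern (GAAA, 2 bases of any kind, then GAAA, on both strands) was in none of the 5 immunoproteasome genes, in 3 of 30 constitutive members (Psmb3, Psmd4 and Psmd9) and in 2.98% of all promoters.

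The antioxidant response element pattern TGACNNNGC, searched on both strands, which Nrf1 and Nrf2 bind with their partners, was in none of the 5 immunoproteasome genes and in 5 of 30 constitutive members, against 10.2% of all promoters. These were Psmb5, Psmb6, Psmc6, Psmd12 and Psmd9. The catalytic gene Psmb7 was among the constitutive members without a promoter to read. Falls in control IEL were common, in 28 of 36 constitutive members. Psma6, with the lowest fold change there, had no match, and Psmd9, with a match, did not pass. Whether matches go with the falls was not tested. The sequences before Psmb5 (chr14:54618023-54618245, minus strand) and Psmb6 (chr11:70525107-70525356, plus strand) are given with the match in capitals, because these are catalytic genes with a match close to the start.
Psmb5: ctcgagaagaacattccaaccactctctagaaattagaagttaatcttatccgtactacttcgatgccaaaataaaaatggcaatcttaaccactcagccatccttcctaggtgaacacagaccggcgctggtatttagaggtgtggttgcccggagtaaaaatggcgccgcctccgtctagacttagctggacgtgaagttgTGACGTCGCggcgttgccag
Psmb6: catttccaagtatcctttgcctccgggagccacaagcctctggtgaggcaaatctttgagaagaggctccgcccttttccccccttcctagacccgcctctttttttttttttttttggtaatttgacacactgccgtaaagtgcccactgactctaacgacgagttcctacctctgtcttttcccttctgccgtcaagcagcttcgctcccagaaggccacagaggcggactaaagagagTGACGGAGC
The match lies at bases -47 to -39 in Psmb5 and at -9 to -1 in Psmb6. A match is a description of the letters, and no match says only that these letters are not in the window.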

How the data were processed

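The deposited files were 2 tables of the 12 libraries. The first held the authors' raw counts for 48663 gene symbols, and 5 rows of unassigned reads in it were left out of totals. The second held values deposited as FPM, which equal CPM of gene counts. All of them came out as whole reads within 0.001, and the count test run on those reads gave the same 948 and 963 calls for KO IELp. Per the labels' protocols, RNA was isolated with RNeasy Plus Micro, and libraries were made with SMARTer Ultra Low Input and Nextera XT and read as 76 bp pairs. The submitters' processing notes name bcl2fastq 2.17, Trimmomatic, STAR, HTSeq, DESeq2 and mm10. Neither the annotation nor the strandedness of the counting is given in the sources used here.

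Each pair of groups was fitted over the whole table with edgeR 4.0.16 in R 4.3.3 (quasi-likelihood test, filterByExpr, TMM, 2-sided, Benjamini-Hochberg threshold 0.05), after a test on simulated data. The SE of a log2 fold change was its size divided by the root of its F statistic. Alternatives were other scaling, DESeq2 1.42.0, no filter, a replicate block, 1 fit of 12 libraries, limma 3.58.1 on log2(FPM + 1) and log2(FPM + 0.1), and leaving out each library. Members and lists were chosen with earlier results of these data known. Psmb8, Psmb9, Psmb10, Psme1, Psme2, Psmb5, Psmb6, Psmb7 and Psme3 were named throughout, with up to 5 other members of lowest adjusted p per direction and up to 3 genes per partner list; other genes named were chosen with their values in view. Intervals and floors of 3 counts cover counting error only. Some genes of the partner and marker lists are not reported here.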

Additional observations from a re-analysis of the deposited data

Results flagged for a closer look

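The step from precursor to CD8αα cell differed between control and KO cells in all 9 genes named throughout, by the edgeR test of the difference itself (adjusted p under 0.05 over all genes). Such a call was common, since 46.7% of all 15757 tested genes passed, 24.2% as higher. The control step ended in IEL and the KO step in spleen, so genotype and tissue cannot be told apart. The difference, KO minus control on the log2 scale, was 1.04 for Psme2, 0.92 for Psmb8, 0.91 for Psme1, 0.44 for Psmb9 and 0.41 for Psmb10. Among constitutive genes it was 0.77 for Psmb6, 0.72 for Psmb7, 0.66 for Psmb5 and 0.52 for Psme3. These values include differences between the precursors, where Psmb8 and Psmb9 were already lower in KO IELp. Psme2 could not be told with certainty from its copy Psme2b, which had a difference of 0.79. Psmb6-ps2, a processed copy left out of the members, held up to 24 counts in a library, in control IELp replicate 3, where Psmb6 held 2507 counts. Its counts were 4, 5 and 5 in control IEL.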

How the results depend on the processing

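No result reversed. The number of constitutive members that fell in KO IELp was 1, and it was 0 with median-of-ratios size factors, 3 with library totals alone, 3 in DESeq2 (with 1 rise), 2 without the filter, 0 with the replicate block, 2 in limma with either added value, and 0 to 3 when 1 library was left out. For KO spleen cells against control IEL the falls, 0 in the chosen fit, were 2 in 1 fit of 12 libraries and 0 to 1 when 1 library was left out. For KO spleen cells against KO IELp the 12 falls became 21 with library totals alone and in limma with either added value, where the rises became 1, then 7 in 1 fit of 12 libraries, and 6 to 12 when 1 library was left out. Counts of immunoproteasome members kept their size in control IEL against IELp, in KO spleen against KO IELp and in the step difference under every alternative run.

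The correlations of same-numbered deviations were small, between -0.03 and 0.06. Every sample correlated best with its own number in control IEL against IELp and in KO spleen against KO IELp, and not in the other 2 comparisons. Whether libraries of the same number share mice or a batch is not known from the labels, and the main fits did not pair them. The replicate block left 28 falls in control IEL, 21 rises against 24 in KO spleen against IEL, and 2 immunoproteasome falls against 3 in KO IELp, where Psme2 had an adjusted p of 0.0732. With 3 libraries a group, ratio tests cannot go below 0.1. The lowest count of a constitutive or immunoproteasome member in any library was 206, for Psma5 in control IEL replicate 1. The filter on low counts kept Psma8 and Psmb11 out of the tests.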
